A study of Mus musculus with 18 samples.

Results

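The iron and haem handling genes described here are Ftl1, Fth1, Tfrc, Trf, Slc11a2, Slc40a1, Slc11a1, Ireb2, Hmox1 and Blvrb. They were taken by gene symbol and are 10 of the 23420 genes listed in each library. All 10 had enough counts to be tested, as had 11876 genes in all.

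RNA was sequenced from dendritic cells that were grown from C57BL/6 mouse bone marrow in 20 ng/ml GM-CSF, re-plated on day 9, treated for 8 hours and sorted as live cells with high CD11c. There were 6 groups of 3 libraries. Cells from Bat3 fl/fl CD11c Cre mice (cKO), in which Cre is driven by the promoter of the CD11c gene and Bat3 is an older name of Bag6, received lipopolysaccharide (LPS, a bacterial product sensed by TLR4) or medium. Wild-type cells (WT) received LPS together with IL10 and TGF-β, LPS alone, IL10 with TGF-β, or medium. IL10 and TGF-β are cytokines that restrain dendritic cell activation and are called the cytokines below. All 6 groups share the GM-CSF culture and the CD11c sort, and no cKO cells with the cytokines were analysed here.

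Iron that enters a cell is used for haem and iron-sulphur clusters, stored in ferritin or exported. Iron regulatory proteins, among them the product of Ireb2, bind hairpins called iron-responsive elements when iron is scarce. A hairpin in the 5′ untranslated region lets them block translation, as in the ferritin transcripts, and hairpins in the 3′ untranslated region of Tfrc let them protect the transcript. In macrophages and related cells much of the iron comes from haem, which haem oxygenase 1 opens into iron, carbon monoxide and biliverdin. Inflammation is known to make myeloid cells hold iron back from microbes.

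Library totals ran from 8056831 to 12068759 expected counts. Bag6 had 4.56 to 11.3 CPM (counts scaled by library size and TMM factors to a common total) in the 6 cKO libraries, against 22.8 to 27.6 CPM in the 12 WT libraries. The first library of each cKO group stood apart by sex-linked genes, with 1014 CPM of Xist in cKO LPS and 526 CPM in cKO medium, against at most 1.12 CPM in the other 16 libraries. Ddx3y, on the Y chromosome, had 0.424 CPM and 0.182 CPM in these libraries, against 35.1 to 56.4 CPM in the other 16. Values without these 2 libraries are given where they end a call. The ribosomal RNA gene Rn45s took 1.28% to 4.01% of counts in cKO medium, against 4.48% to 8.88% in the other groups, and leaving it out changed no call of the 10 genes. The labels speak of triplicates and elsewhere of 5 biological replicates and do not tie libraries to animals or cultures, so the p-values measure the spread between these libraries, which may be technical. Summed markers of erythroid cells, the main haem-making lineage, stayed between 0.671 and 2.36 CPM in every library. In sorted bulk RNA, fewer cells of a type and less RNA per cell cannot be told apart.

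Iron-responsive elements were searched for in the untranslated regions of all 10 genes, because the iron regulatory proteins bind such hairpins. The search was by sequence alone, and binding was not tested. The search asked for the loop CAGTGN on a stem of 5 base pairs, with G opposite T allowed, above an unpaired C in the 5′ arm. Each line below gives 6 further bases on either side, except 5 after the Slc11a2 stem. Capitals mark the loop, positions are on GRCm38 (mm10), and sequences come from GENCODE M21 transcripts matched to the transcripts that were counted.
Fth1, 5′ untranslated region, chr19:9982732-9982760, plus strand: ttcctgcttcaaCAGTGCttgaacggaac
Ftl1, 5′ untranslated region, chr7:45459779-45459807, minus strand: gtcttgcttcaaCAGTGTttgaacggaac
Slc40a1, 5′ untranslated region, chr1:45925465-45925493, minus strand: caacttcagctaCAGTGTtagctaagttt
Tfrc element 1, 3′ untranslated region, chr16:32631219-32631247, plus strand: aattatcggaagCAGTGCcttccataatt
Tfrc element 2, 3′ untranslated region, chr16:32631598-32631626, plus strand: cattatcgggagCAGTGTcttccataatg
Tfrc element 3, 3′ untranslated region, chr16:32631663-32631691, plus strand: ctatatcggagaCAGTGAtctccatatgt
Tfrc element 4, 3′ untranslated region, chr16:32631710-32631738, plus strand: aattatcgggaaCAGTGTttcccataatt
Slc11a2, 3′ untranslated region of the longer transcript, chr15:100395153-100395181, minus strand: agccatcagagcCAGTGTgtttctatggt

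The Slc11a2 element was found with 1 unpaired base allowed in the 3′ arm, and the other 7 were fully paired. The fully paired form was present in the 5′ untranslated region of 31 of 20580 genes (0.151%) and in the 3′ untranslated region of 129 of 20962 genes (0.615%). With the unpaired base these shares were 0.243% and 1.11%. These letters were not found in the transcripts of Trf, Slc11a1, Ireb2, Hmox1 or Blvrb.

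In WT cells 7 of the 10 genes rose with LPS and Trf fell, where 29.8% of all tested genes rose, 28.9% fell and 58.7% were called in either direction (edgeR quasi-likelihood test, adjusted p under 0.05). The median log2 fold change of the 10 genes was 1.07, against 0.01 over all tested genes. In cKO cells 6 rose with LPS and both Tfrc and Trf fell, where 29.3% of all genes rose, 34.8% fell and 64.1% were called. When LPS was added to the cytokines, 7 rose and none fell, where 23.9% rose, 23.1% fell and 46.9% were called. The medians were 0.78 for the 10 genes, against -0.09 for all genes, with LPS in cKO cells, and 0.79, against -0.00, with LPS added to the cytokines. The 10 genes were chosen with earlier results of these data known, so these counts and medians, and those that follow, are descriptions.

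Between genotypes, Ftl1, Trf and Blvrb were higher and Ireb2 lower in cKO medium than in WT medium, that is 4 of 10 genes, where 15.8% of all genes were higher, 14.4% lower and 30.2% called. Under LPS, Ftl1, Fth1, Trf, Hmox1 and Blvrb were higher and Tfrc and Ireb2 lower in cKO cells, that is 7 of 10, where 16.0% were higher, 19.3% lower and 35.3% called. On log2(TPM + 1) this split of 5 higher and 2 lower was 2 higher (Trf and Hmox1) and 4 lower. Ftl1, Fth1 and Blvrb lost their calls there, and Slc40a1 and Slc11a1 were called lower. On that scale 724 of all 11876 tested genes were higher and 5424 lower, so lower calls prevailed over all genes as well. The cytokines alone raised Fth1, Hmox1, Slc40a1 and Trf and lowered Blvrb, where 18.3% of all genes rose, 16.9% fell and 35.2% were called. Added to LPS, they raised Trf and lowered Slc11a2 and Blvrb, where 19.1% rose, 21.1% fell and 40.3% were called, so the share of 3 in 10 was not above that of all genes. The medians of the 10 genes were 0.30 for cKO LPS over WT LPS, against -0.05 for all genes, 0.17 in medium, 0.42 for the cytokines alone and 0.07 for the cytokines added to LPS, where those of all genes were within 0.01 of 0.

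Markers of other cell types moved with the deletion as well. Summed macrophage markers were 3333 to 3427 CPM in cKO LPS, against 2255 to 2297 CPM in WT LPS, with 2 of 9 tested markers higher and 2 lower. Cd14 carried this gap, since without it (chosen after its values were seen) the sums were 1373 to 1511 CPM in cKO LPS and 1506 to 1538 CPM in WT LPS. With Cd14 they were 1806 to 2071 CPM in cKO medium, against 1458 to 1560 CPM in WT medium, with 2 higher and 3 lower, and without it 1120 to 1259 CPM in cKO medium and 1108 to 1277 CPM in WT medium. Granulocyte precursor markers were 180 to 502 CPM in sum in cKO medium, against 76.5 to 205 CPM in WT medium, with 7 of 9 higher, while none of the 9 passed under LPS. Mast cell and basophil markers were 6.43 to 15.15 CPM in sum in cKO medium, against 1.09 to 3.82 CPM in WT medium, with 3 of 4 higher. The part of these markers in the differences between cKO and WT cells was not tested.

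Markers also moved with LPS. The macrophage sums above were higher with LPS than in medium in both genotypes, with 5 of 9 markers higher and 3 lower in cKO cells and 6 higher and 3 lower in WT cells. Granulocyte precursor markers were 93.4 to 279 CPM in sum in cKO LPS, with 6 of 9 lower than in cKO medium, and 190 to 601 CPM in WT LPS, with 2 of 9 higher than in WT medium. Of 7 dendritic cell markers, 2 were higher and 1 lower with LPS in cKO cells and 1 was higher and 1 lower in WT cells. Their part in the LPS results was not tested.

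**Figure D1:**
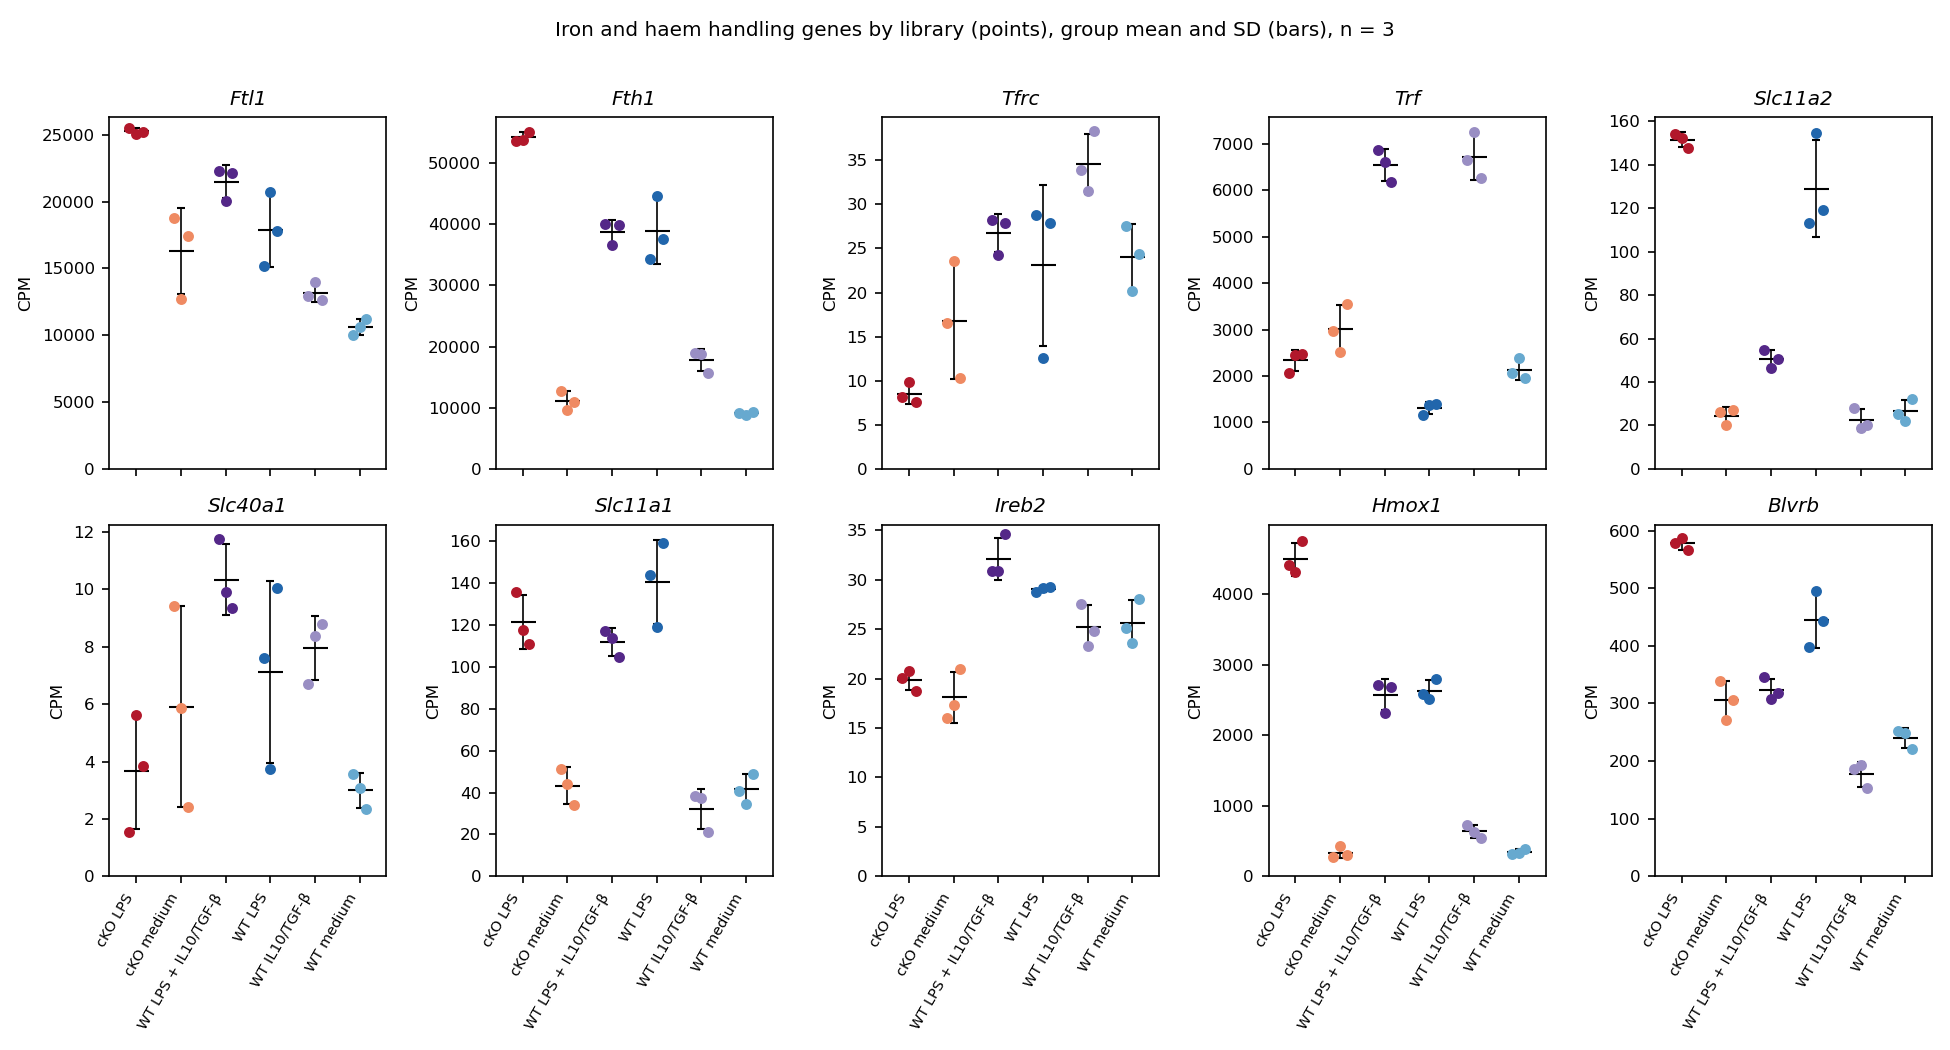
Expression of the 10 genes in CPM (y axis, from 0, linear) in each of the 18 libraries (points), with the group mean and SD (bars, n = 3) for the 6 groups on the x axis. Hmox1 sits at 4310 to 4758 CPM in cKO LPS against 2511 to 2803 CPM in WT LPS, and Trf at 6173 to 7265 CPM in both groups with the cytokines.

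Ftl1 encodes the light chain of ferritin, the iron-storing shell, and lies on chr7:45457944-45459884 (minus strand). Under LPS it had 25513, 25040 and 25172 CPM in cKO libraries, against 15160, 20681 and 17806 CPM in WT libraries. In medium it had 18774, 12673 and 17426 CPM in cKO libraries, against 10038, 10605 and 11192 CPM in WT libraries. The cKO libraries lay above the WT libraries in both conditions without overlap.

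Ftl1 was 0.50 ± 0.13 (log2 fold change ± SE, adjusted p = 0.0047) higher in cKO LPS than in WT LPS and 0.62 ± 0.13 (adjusted p = 0.0011) higher in cKO medium than in WT medium. LPS raised it by 0.63 ± 0.13 in cKO cells (adjusted p = 0.00019) and by 0.75 ± 0.13 in WT cells (adjusted p = 3.5e-05). On the log2(TPM + 1) scale, where values are shares of all transcripts, the cKO difference under LPS was 0.15 (adjusted p = 0.24) and the LPS difference in cKO cells 0.12 (adjusted p = 0.3). With the cytokines it had 22275, 20073 and 22136 CPM with LPS, against 12967, 13961 and 12620 CPM without, a rise of 0.71 ± 0.13 (adjusted p = 0.00013). The cytokines themselves did not move Ftl1 past the threshold with LPS (0.27 ± 0.13, adjusted p = 0.1) or without it (0.31 ± 0.13, adjusted p = 0.061), although fitting only WT cytokines and WT medium gave 0.30 (adjusted p = 0.011). Mouse Ftl1 has near-identical processed copies in the genome, so its count is uncertain to the extent that reads could be shared with them.

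Fth1 encodes the heavy chain of ferritin, which carries the ferroxidase activity that loads iron, and lies on chr19:9980598-9985098 (plus strand). It had 53619, 53846 and 55152 CPM in cKO LPS and 12791, 9580 and 10881 CPM in cKO medium, a rise of 2.29 ± 0.12 with LPS (adjusted p = 1.5e-12). In WT cells it had 34313, 44609 and 37588 CPM with LPS, against 9199, 8838 and 9236 CPM in medium, a rise of 2.09 ± 0.12 (adjusted p = 6.7e-12). Fth1 was 4.89-fold higher with LPS in cKO cells and 4.27-fold in WT cells, and no library with LPS overlapped with a library in medium.

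Between genotypes Fth1 was 0.48 ± 0.12 higher in cKO LPS than in WT LPS (adjusted p = 0.003), which on the log2(TPM + 1) scale was 0.13 (adjusted p = 0.22). In medium the difference was 0.29 ± 0.12 and did not pass (adjusted p = 0.066), although the 3 cKO libraries lay above the 3 WT libraries. Without the second cKO medium library it was 0.38 (adjusted p = 0.016).

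The cytokines raised Fth1 on their own to 18896, 18770 and 15749 CPM, by 0.97 ± 0.12 over WT medium (adjusted p = 1.1e-06). With LPS and the cytokines it had 39985, 36536 and 39918 CPM, 1.12 ± 0.12 above the cytokines alone (adjusted p = 1.8e-07). Against LPS alone that was -0.00 ± 0.12 (adjusted p = 1), with a 95% interval from -0.23 to 0.23. The LPS effect on Fth1 was therefore smaller with the cytokines than without them, by 0.97 ± 0.16 (adjusted p = 0.00017).

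Both ferritin transcripts are among the most abundant in these cells, and their balance shifted with LPS. Fth1 made up 7.57% ± 0.15 of all TPM (a level per transcript length, scaled to the same sum in each library; SD, n = 3) in cKO LPS and 2.23% ± 0.28 in cKO medium. In WT cells the Fth1 share was 6.93% ± 0.44 with LPS and 1.94% ± 0.08 in medium. Together the subunits took 10.99% ± 0.23 of TPM in cKO LPS and 10.02% ± 0.69 in WT LPS, against 5.41% ± 0.83 in cKO medium and 4.13% ± 0.21 in WT medium.

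The ratio of Fth1 TPM to Ftl1 TPM was 2.17 to 2.26 in cKO LPS and 0.645 to 0.781 in cKO medium. In WT cells it was 2.18 to 2.34 with LPS and 0.852 to 0.947 in medium. Heavy-chain transcripts thus outnumbered light-chain transcripts in each LPS library and not in medium. The ratio was 1.86 to 1.88 with LPS and the cytokines, below each library with LPS alone, and 1.29 to 1.505 with the cytokines alone, above each library in medium. These ratios are given as descriptions with no test.

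**Figure D2:**
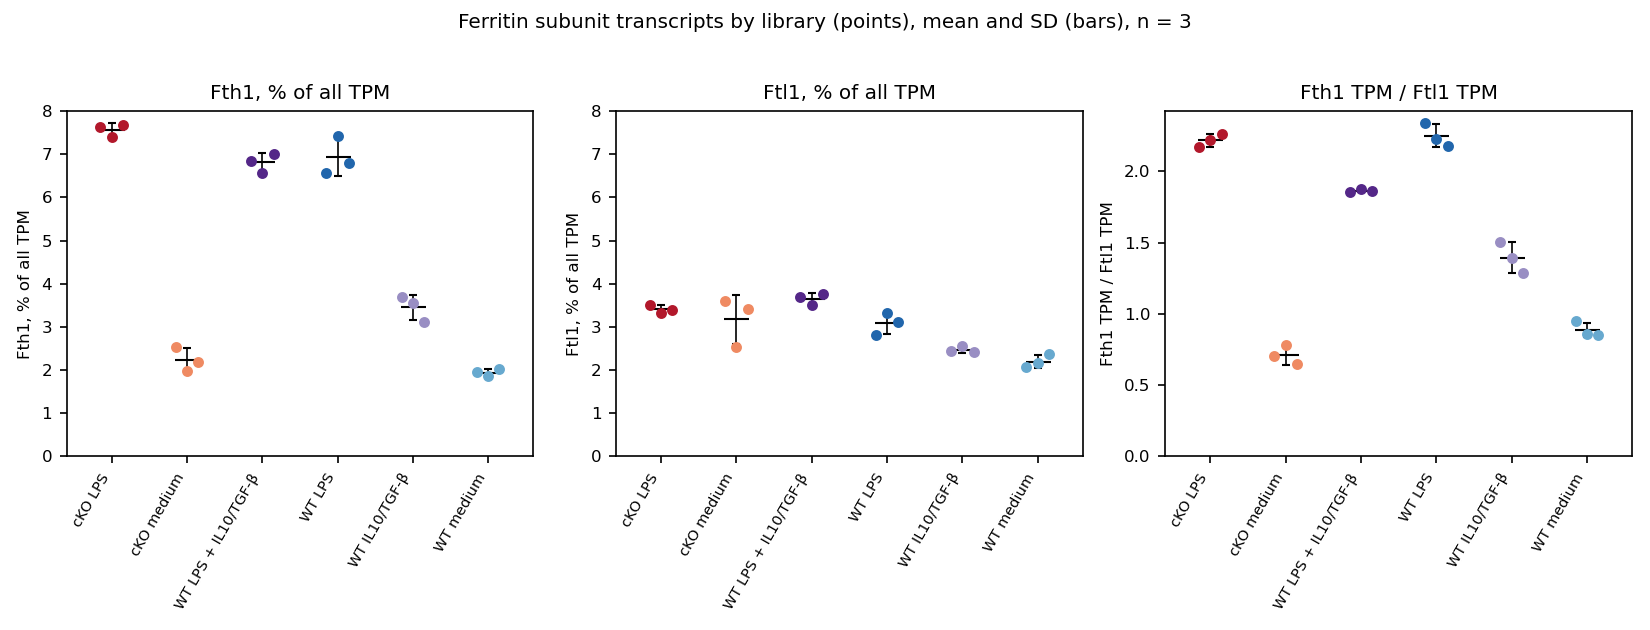
Fth1 and Ftl1 as a percentage of all TPM (left and middle, linear axes from 0) and the ratio of Fth1 TPM to Ftl1 TPM (right) in each library (points), with group mean and SD (bars, n = 3). The Fth1 share is 7.57% in cKO LPS and 2.23% in cKO medium on average, and the ratio lies under 1 in all 6 libraries in medium.

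Tfrc encodes the transferrin receptor, which brings iron-loaded transferrin into the cell, and lies on chr16:32608920-32632794 (plus strand). Its transcript carries the 4 elements printed above and was rare, at 2.08 ± 0.26 to 11.7 ± 1.39 TPM in the group means. Under LPS it had 8.20, 9.82 and 7.54 CPM in cKO libraries, against 28.8, 12.6 and 27.9 CPM in WT libraries. It fell by 1.44 on the log2 scale (SE 0.31, adjusted p = 0.0017) in cKO LPS relative to WT LPS, and the groups did not overlap although 1 WT library lay well below the other two.

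In medium Tfrc had 16.5, 23.6 and 10.3 CPM in cKO libraries, against 27.6, 20.2 and 24.4 CPM in WT libraries, and these overlapped. The difference was -0.52 ± 0.27 (adjusted p = 0.16), or -0.84 (adjusted p = 0.028) without the second cKO library. LPS lowered Tfrc in cKO cells by 0.98 (SE 0.31, adjusted p = 0.011). That call was lost without the first library of both cKO groups (-0.96, adjusted p = 0.062), without the third cKO LPS library (-0.87, adjusted p = 0.051) and without the second cKO medium library (-0.66, adjusted p = 0.067). In WT cells the LPS difference was -0.06 ± 0.27 (adjusted p = 0.87). Whether LPS acted differently on Tfrc in the genotypes was tested directly and did not pass (-0.92 ± 0.41, adjusted p = 0.13). It did pass without the count filter (-0.89, adjusted p = 0.002), without the second WT LPS library (-1.21, adjusted p = 0.012) and without the third cKO medium library (-1.18, adjusted p = 0.034). With the cytokines Tfrc had 28.2, 24.3 and 27.9 CPM with LPS and 33.9, 31.6 and 38.3 CPM without, and none of the cytokine comparisons passed (adjusted p from 0.13 to 0.62). With only the groups compared, the cytokines over WT medium gave 0.51 (adjusted p = 0.016) and LPS added to the cytokines -0.37 (adjusted p = 0.01).

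Trf encodes transferrin, the iron carrier that Tfrc takes up, and lies on chr9:103204001-103230444 (minus strand). It had the clearest cytokine response of the 10 genes. With LPS and the cytokines it had 6863, 6606 and 6173 CPM, against 1159, 1372 and 1400 CPM with LPS alone, a rise of 2.32 ± 0.13 (adjusted p = 3e-11). With the cytokines alone it had 6656, 7265 and 6270 CPM, against 2060, 2395 and 1959 CPM in WT medium, a rise of 1.65 ± 0.13 (adjusted p = 1.2e-09).

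LPS lowered Trf in WT cells by 0.71 (SE 0.12, adjusted p = 4.6e-05), and the libraries did not overlap. In the presence of the cytokines the LPS difference was -0.04 ± 0.12 (adjusted p = 0.81). The gap between these effects, 0.67 ± 0.17, passed (adjusted p = 0.0083).

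Trf was also higher in the deletion. It had 2071, 2452 and 2484 CPM in cKO LPS, against the WT LPS values above, a difference of 0.83 ± 0.12 (adjusted p = 3.8e-05). In medium it had 2960, 2509 and 3551 CPM in cKO libraries, 0.49 ± 0.12 above WT medium (adjusted p = 0.0048). LPS lowered it in cKO cells by 0.36 (SE 0.12, adjusted p = 0.013), a call lost without the first library of both cKO groups (-0.30, adjusted p = 0.099), without the first cKO LPS library (-0.25, adjusted p = 0.11) or without the third cKO medium library (-0.23, adjusted p = 0.12). The annotation places another gene model, Gm20425, over Trf. Gm20425 was not among the genes counted, so any reads from it could have been counted as Trf, and their extent was not tested.

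Cell-type markers moved with the cytokines too. The summed level of 8 conventional dendritic cell markers was 1125 to 1475 CPM with LPS and the cytokines, against 6087 to 6672 CPM with LPS alone, and 7 of 7 tested markers were lower. It was 1279 to 1751 CPM with the cytokines alone, against 3559 to 7590 CPM in WT medium, with 6 of 7 lower. Granulocyte precursor markers went the other way, with 1048 to 1843 CPM in sum with the cytokines, against 76.5 to 205 CPM in WT medium, and 9 of 9 tested markers higher. They were 456 to 751 CPM with LPS and the cytokines, against 190 to 601 CPM with LPS alone, with 7 of 9 higher.

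Summed macrophage markers were 3709 to 4094 CPM with LPS and the cytokines, against 2255 to 2297 CPM with LPS alone, with 4 of 9 higher and none lower. They were 2474 to 3046 CPM with the cytokines alone, against 1458 to 1560 CPM in WT medium, with 6 higher and 1 lower. Mast cell and basophil markers were 7.14 to 14.4 CPM in sum with LPS and the cytokines, against 4.08 to 4.52 CPM with LPS alone, and 12.5 to 29.8 CPM with the cytokines alone, against 1.09 to 3.82 CPM in WT medium. Flt3, a defining dendritic cell marker, was at 0 in all 3 cKO LPS libraries and at most 0.441 CPM elsewhere. The part of these shifts in the cytokine results of Trf, Slc11a2, Slc40a1, Hmox1, Fth1 and Blvrb was not tested.

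Slc11a2 encodes DMT1, the proton-coupled transporter that moves ferrous iron out of endosomes, and lies on chr15:100387898-100425072 (minus strand). It had 154, 152 and 148 CPM in cKO LPS, against 26.2, 20.1 and 27.2 CPM in cKO medium, a rise of 2.63 ± 0.16 (adjusted p = 4.9e-11). It had 113, 154 and 119 CPM in WT LPS, against 25.1, 22.0 and 32.2 CPM in WT medium, a rise of 2.29 ± 0.16 (adjusted p = 4.1e-10). The increase was 6.17-fold in cKO cells and 4.87-fold in WT cells, and the difference between genotypes did not pass under LPS (0.23 ± 0.15, adjusted p = 0.25) or in medium (-0.11 ± 0.16, adjusted p = 0.66).

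The cytokines cut this response. With LPS and the cytokines Slc11a2 had 54.6, 46.5 and 50.4 CPM, a fall of 1.35 (SE 0.16, adjusted p = 8.6e-07) relative to LPS alone, and the libraries did not overlap. Without LPS it had 28.0, 18.6 and 20.3 CPM with the cytokines, -0.25 ± 0.16 relative to WT medium (adjusted p = 0.26). LPS raised it in the presence of the cytokines by 1.18 ± 0.16 (adjusted p = 7.4e-06), which was 1.10 less than without them (SE of the difference 0.23, adjusted p = 0.0014).

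The files also hold, per library, the mean length of the Slc11a2 transcripts weighted by their estimated abundance, a value the rule of choice did not use. Slc11a2 was counted as 2 transcripts, whose annotated counterparts are 4415 and 3025 bases long, and the longer one holds the iron-responsive element printed above. The mean length was 3659, 3728 and 3580 bases in cKO LPS, against 3265, 3324 and 3306 bases in WT LPS. It was 3129, 3117 and 3111 bases in cKO medium, against 3130, 3080 and 3096 bases in WT medium. Each cKO LPS library therefore had a longer mean than any other library, while the genotypes overlapped in medium.

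Read as a mixture of the 2 annotated lengths, the longer form made up 45.4% ± 5.34 of Slc11a2 transcripts in cKO LPS and 19.7% ± 2.19 in WT LPS (SD, n = 3). In medium it made up 6.75% ± 0.65 in cKO cells and 5.56% ± 1.84 in WT cells. With LPS and the cytokines the estimate was 20.1% ± 3.59, which overlapped with LPS alone, and with the cytokines alone it was 9.27% ± 0.30. The cytokines thus went with a lower Slc11a2 level and with no separation in this share under LPS. These are estimates with no test, since the lengths used upstream can differ by some bases from the annotated ones. The direction of the genotype difference depended on the unit. Slc11a2 stood at 50.2 ± 1.66 TPM in cKO LPS, against 60.6 ± 5.96 TPM in WT LPS, whereas its mean CPM was 151 in cKO LPS and 129 in WT LPS. On log2(TPM + 1) the median of all genes was itself -0.31 for cKO LPS over WT LPS. The part of transcript length in this turn was not tested. Another listed gene, Gm5475, overlaps Slc11a2, so reads could be split between them.

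**Figure D3:**
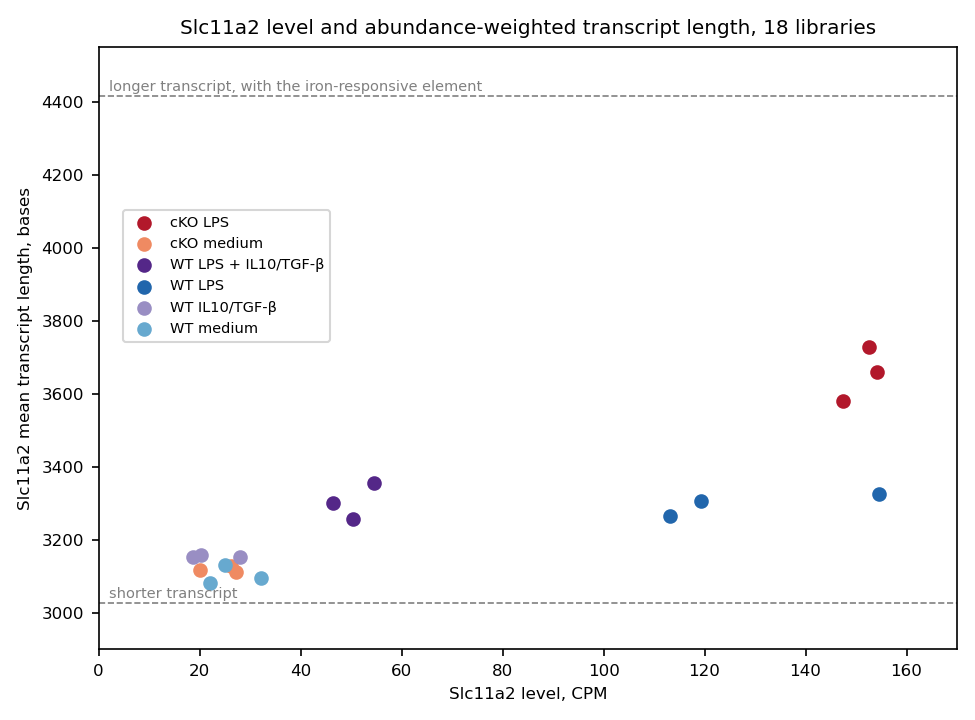
Abundance-weighted mean transcript length of Slc11a2 in bases (y axis, not from 0) against its level in CPM (x axis, linear) in the 18 libraries, coloured by group, with dashed lines at the annotated lengths of the 2 transcripts. The 3 cKO LPS libraries lie between 3580 and 3728 bases, above the WT LPS libraries at 3265 to 3324 bases.

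Slc40a1 encodes ferroportin, the exporter of cellular iron, and lies on chr1:45908068-45926523 (minus strand). It was the rarest of the 10 genes, and its values rest on few counts. It had 7.61, 3.73 and 10.04 CPM in WT LPS, against 3.57, 3.09 and 2.36 CPM in WT medium, a rise of 1.25 ± 0.43 (adjusted p = 0.02). That call was lost on the log2(TPM + 1) scale (0.64, adjusted p = 0.079) and without the first WT LPS library (1.20, adjusted p = 0.054), the third WT LPS library (0.92, adjusted p = 0.12) or the third WT medium library (1.10, adjusted p = 0.078).

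In cKO cells the libraries overlapped, with 1.56, 5.61 and 3.85 CPM in LPS and 9.44, 5.87 and 2.42 CPM in medium (-0.70 ± 0.46, adjusted p = 0.19). This difference passed without the count filter (-0.69, adjusted p = 0.025) and without the third cKO medium library (-1.08, adjusted p = 0.025). It also passed on log2(TPM + 1) (-0.75, adjusted p = 0.035) and log2(TPM + 0.1) (-1.12, adjusted p = 0.034). The LPS effect differed between genotypes by -1.95 ± 0.63 (adjusted p = 0.042). Without the first library of both cKO groups, which held the lowest cKO value in LPS and the highest in medium, the difference was -1.05 (adjusted p = 0.24). With the replicate number as a block it was -1.93 (adjusted p = 0.065), and with single libraries left out it lay between -2.09 and -1.43 among the fits that lost the call. Between genotypes Slc40a1 overlapped in medium (0.98 ± 0.43, adjusted p = 0.099) and under LPS (-0.98 ± 0.46, adjusted p = 0.11). In medium the difference passed without the count filter (0.95, adjusted p = 0.0013) and without the third cKO medium library (1.35, adjusted p = 0.014). Under LPS it passed on log2(TPM + 1) (-0.88, adjusted p = 0.023) and log2(TPM + 0.1) (-1.30, adjusted p = 0.023). It also passed without the count filter (-0.97, adjusted p = 0.0018) and without the second WT LPS library (-1.28, adjusted p = 0.034).

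The cytokines raised Slc40a1 to 6.69, 8.37 and 8.80 CPM, by 1.41 ± 0.42 over WT medium (adjusted p = 0.015), a call lost without the third WT medium library (1.26, adjusted p = 0.061). With LPS and the cytokines it had 11.7, 9.93 and 9.35 CPM, and the difference from LPS alone did not pass (0.53 ± 0.39, adjusted p = 0.3). Hamp, which encodes hepcidin, the peptide that binds ferroportin and removes it from the surface, is named here after its values were seen. Hamp had 31.3, 49.1 and 42.8 CPM in cKO LPS, against 3.58, 18.7 and 8.72 CPM in WT LPS, and was 1.99 ± 0.48 higher in cKO cells without overlap (adjusted p = 0.0088). It was listed at 0 counts in all 6 libraries in medium, and its similar neighbour Hamp2 leaves its reads uncertain.

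Slc11a1 encodes NRAMP1, known as a transporter of divalent metals out of phagosomes, and lies on chr1:74375195-74386062 (plus strand). Only its transcript was measured here, and whether these cells hold working NRAMP1 protein was not tested. The Slc11a1 transcript had 136, 118 and 111 CPM in cKO LPS, against 51.5, 44.3 and 34.0 CPM in cKO medium, a rise of 1.49 ± 0.20 (adjusted p = 3.5e-06). It had 144, 119 and 159 CPM in WT LPS, against 40.8, 34.7 and 49.0 CPM in WT medium, a rise of 1.76 ± 0.20 (adjusted p = 6.4e-07). With the cytokines it had 117, 114 and 105 CPM with LPS, against 38.2, 37.4 and 21.1 CPM without, a rise of 1.80 ± 0.20 (adjusted p = 1.4e-06).

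Slc11a1 thus rose with LPS by 2.81-fold in cKO cells, 3.39-fold in WT cells and 3.48-fold with the cytokines. The cytokines did not separate it beyond the threshold with LPS (-0.33 ± 0.19, adjusted p = 0.18) or without it (-0.37 ± 0.20, adjusted p = 0.17), and neither did the deletion in medium (0.06 ± 0.20, adjusted p = 0.85). The cytokine difference with LPS passed without the count filter (-0.32, adjusted p = 0.039) and with only the groups compared (-0.33, adjusted p = 0.034). Without LPS it passed without the count filter (-0.37, adjusted p = 0.019) and on log2(TPM + 1) (-0.52, adjusted p = 0.048). Under LPS the genotype difference was -0.21 ± 0.19 (adjusted p = 0.41), but -0.56 (adjusted p = 0.027) on the log2(TPM + 1) scale. Its LPS effect with and without the cytokines differed by 0.04 ± 0.27 (adjusted p = 0.95), unlike that of Slc11a2, its relative in the same transporter family.

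Ireb2, which encodes iron regulatory protein 2, lies on chr9:54863789-54912530 (plus strand). It varied little with treatment and was lower in cKO cells. It had 20.1, 20.7 and 18.8 CPM in cKO LPS, against 28.8, 29.2 and 29.2 CPM in WT LPS, a fall of 0.55 (SE 0.12, adjusted p = 0.0015). In medium it had 16.0, 17.3 and 20.95 CPM in cKO libraries, against 25.1, 23.6 and 28.1 CPM in WT libraries, a fall of 0.50 (SE 0.12, adjusted p = 0.003). All 6 cKO libraries lay below all 12 WT libraries.

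LPS did not move Ireb2 past the threshold in cKO cells (0.14 ± 0.12, adjusted p = 0.35) or WT cells (0.18 ± 0.12, adjusted p = 0.18). In cKO cells the sign of that difference depended on the scale, as on log2(TPM + 1) it was -0.32 (adjusted p = 0.022). With the cytokines it had 30.9, 30.8 and 34.6 CPM with LPS, against 27.6, 23.3 and 24.8 CPM without, a rise of 0.35 ± 0.11 (adjusted p = 0.016). This small rise was lost without the count filter (0.35, adjusted p = 0.051), on log2(TPM + 1) (0.18, adjusted p = 0.22), without the second library with the cytokines alone (0.29, adjusted p = 0.081) and without the third with LPS and the cytokines (0.29, adjusted p = 0.074).

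Hmox1, which encodes the haem oxygenase that cells induce, lies on chr8:75093621-75100589 (plus strand) and had the steepest LPS response of the 10. It had 4410, 4310 and 4758 CPM in cKO LPS, against 280, 423 and 301 CPM in cKO medium, a rise of 3.75 ± 0.15 (adjusted p = 1.4e-14). It had 2581, 2511 and 2803 CPM in WT LPS, against 311, 336 and 384 CPM in WT medium, a rise of 2.94 ± 0.14 (adjusted p = 5.8e-13). That is 13.4-fold in cKO cells and 7.66-fold in WT cells, and no library with LPS overlapped with a library in medium.

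The genotypes overlapped in medium (-0.04 ± 0.13, adjusted p = 0.85) and separated with LPS. The gap between their LPS effects was 0.81 ± 0.19 (adjusted p = 0.0063), and called in the same direction were 7.33% of all tested genes. Of all genes 10.1% had a lower LPS effect in cKO cells and 17.4% differed in either direction, and of the 10 genes here only Hmox1 and Slc40a1 did. Without the first library of both cKO groups the Hmox1 gap was 0.71 (adjusted p = 0.033), and on log2(TPM + 1) it was 0.55 (adjusted p = 0.048).

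The cytokines alone raised Hmox1 to 734, 635 and 547 CPM, by 0.89 ± 0.14 over WT medium (adjusted p = 2.3e-05). With LPS and the cytokines it had 2711, 2321 and 2687 CPM, 2.01 ± 0.14 above the cytokines alone (adjusted p = 1.1e-09). It overlapped with LPS alone (-0.03 ± 0.13, adjusted p = 0.87, 95% interval up to 0.23). The LPS effect on Hmox1 was smaller with the cytokines by 0.93 (SE 0.19, adjusted p = 0.0013). Hmox1 and Fth1 thus had the same order over the WT groups, with medium lowest, the cytokines between, and both LPS groups highest and overlapping. Of all tested genes 8.88% had a higher and 12.1% a lower LPS effect with the cytokines, 20.9% in all, against 1 and 3 of the 10 genes, namely Trf, and Fth1, Hmox1 and Slc11a2.

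Blvrb encodes biliverdin reductase B, a flavin and biliverdin reductase, and lies on chr7:27447978-27466144 (plus strand). It had 579, 587 and 566 CPM in cKO LPS, against 339, 271 and 305 CPM in cKO medium, a rise of 0.92 ± 0.11 (adjusted p = 1.8e-07). It had 397, 495 and 442 CPM in WT LPS, against 252, 248 and 220 CPM in WT medium, a rise of 0.89 ± 0.11 (adjusted p = 4.1e-07). The LPS effect was of the same size in both genotypes within 0.03 ± 0.15 (adjusted p = 0.92), with a 95% interval up to 0.32.

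Blvrb fell with the cytokines both with and without LPS. It had 345, 308 and 319 CPM with LPS and the cytokines, a fall of 0.46 (SE 0.11, adjusted p = 0.0015) relative to LPS alone. With the cytokines alone it had 186, 193 and 152 CPM, a fall of 0.44 (SE 0.11, adjusted p = 0.0025) relative to WT medium. Neither pair of groups overlapped.

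The deletion went with more Blvrb, by 0.38 ± 0.11 under LPS (adjusted p = 0.0087) and by 0.34 ± 0.11 in medium (adjusted p = 0.018). The first of these was lost on log2(TPM + 1) (0.02, adjusted p = 0.84) and without the first WT LPS library (0.30, adjusted p = 0.055). The second was lost without the first library of both cKO groups (0.26, adjusted p = 0.12), without the first cKO medium library alone (0.26, adjusted p = 0.11), without the third WT medium library (0.28, adjusted p = 0.084) and when only the groups compared were fitted (0.35, adjusted p = 0.056).

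**Figure D4:**
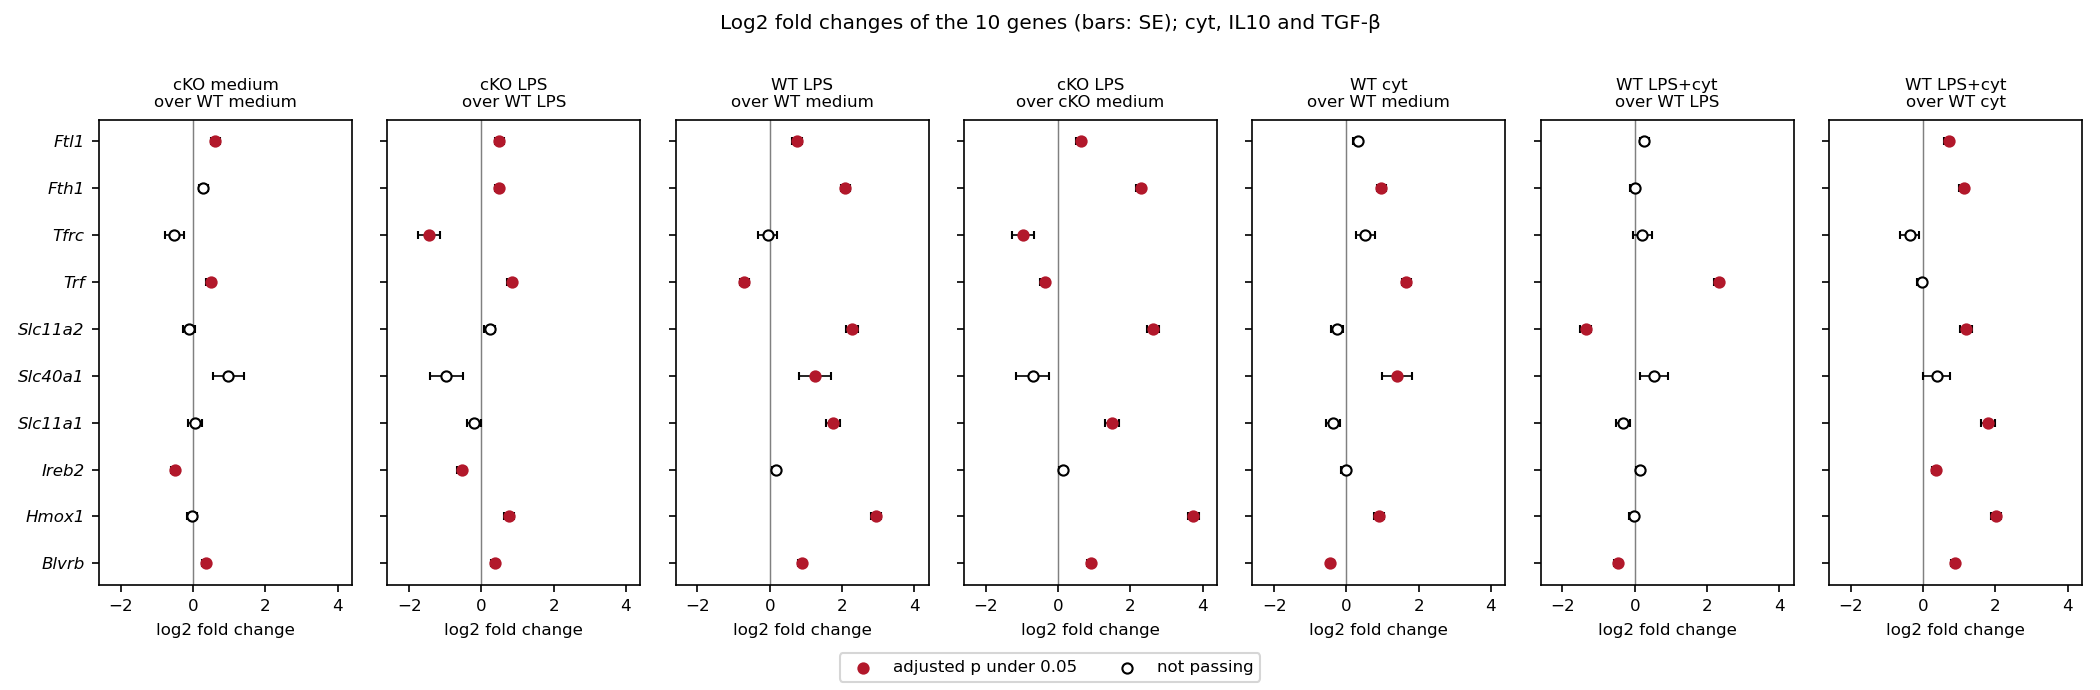
Log2 fold changes (x axis) of the 10 genes (y axis) in the 7 comparisons between groups, with SE bars, where filled points passed an adjusted p of 0.05 in edgeR and open points did not; cyt stands for IL10 with TGF-β. Hmox1 lies furthest to the right with LPS in cKO cells, at 3.75, and Trf with the cytokines added to LPS, at 2.32.

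Beyond these 10, a wider list of iron and haem genes was examined, of which 52 were listed in the files and 44 tested. In cKO LPS 12 were higher and 7 lower than in WT LPS, that is 19 of 44 where 35.3% of all genes were called, and the list's median was 0.04. In cKO medium 13 were higher and 8 lower than in WT medium, where 15.8% of all genes were higher, 14.4% lower and 30.2% called. Of the called genes with the smallest p, those higher in both conditions were Fbxl5 and Pcbp1. Fbxl5 is part of the ubiquitin ligase that removes iron regulatory protein 2 when iron is plentiful, and was 0.76 ± 0.13 higher in cKO LPS (adjusted p = 0.00016) and 0.96 ± 0.13 in cKO medium (adjusted p = 2.3e-05). Pcbp1, an iron chaperone that loads ferritin, was 0.94 ± 0.14 higher in cKO LPS (adjusted p = 4.5e-05) and 0.75 ± 0.13 in cKO medium (adjusted p = 0.00036).

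Under LPS, Nfe2l2, which encodes the oxidative stress factor NRF2 that is known to drive Hmox1 and ferritin genes, was 0.56 ± 0.09 higher in cKO cells (adjusted p = 0.00013). Aco1, which encodes iron regulatory protein 1, was lower there by 0.74 (SE 0.11, adjusted p = 3.1e-05), as were Uros, a haem synthesis enzyme, by 1.20 (SE 0.25, adjusted p = 0.0011; in medium -0.51 ± 0.18, adjusted p = 0.038), and Nfs1, which provides sulphur for iron-sulphur clusters, by 0.51 (SE 0.13, adjusted p = 0.0058). Uros was rare, with 1.41, 1.56 and 1.69 CPM in cKO LPS, against 3.58, 3.03 and 4.08 CPM in WT LPS. In medium, Slc48a1, a transporter that brings haem out of the phagolysosome, was 0.77 ± 0.13 higher in cKO cells (adjusted p = 0.00017), as it was under LPS (0.60 ± 0.13, adjusted p = 0.001). Lower in cKO medium were Bach1, the haem-sensing repressor of Hmox1 (-0.95 ± 0.19, adjusted p = 0.00081), Steap3, a ferric reductase of the transferrin cycle (-1.15 ± 0.23, adjusted p = 0.00086; under LPS -0.79 ± 0.30, adjusted p = 0.048, with overlapping libraries), and Fech, which inserts iron into haem (-0.37 ± 0.10, adjusted p = 0.0062).

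With LPS the wider list split, with 16 higher and 17 lower in WT cells and 18 higher and 17 lower in cKO cells. Of all genes 58.7% were called in WT cells and 64.1% in cKO cells. Cp, the ferroxidase that works with ferroportin, rose in WT cells by 3.55 ± 0.27 (adjusted p = 6.1e-10) and in cKO cells by 2.86 ± 0.26 (adjusted p = 5.7e-09). In WT cells Alas1, the first enzyme of haem synthesis, rose by 1.24 ± 0.12 (adjusted p = 2.5e-08) and Hmox2, the constitutive haem oxygenase, by 0.78 ± 0.08 (adjusted p = 9.2e-08). Steap3 (-1.70 ± 0.24, adjusted p = 4.5e-06), Hfe (-1.23 ± 0.18, adjusted p = 4.5e-06) and Blvra, the other biliverdin reductase (-0.91 ± 0.12, adjusted p = 2.1e-06), fell in WT cells. In cKO cells Ncoa4, which delivers ferritin for degradation, rose by 1.23 ± 0.11 (adjusted p = 2.1e-09) and Nfe2l2 by 0.96 ± 0.09 (adjusted p = 1.9e-08), while Urod, a haem synthesis enzyme (-0.98 ± 0.11), and Aco1 (-0.92 ± 0.11) fell (adjusted p = 1.7e-07 for both).

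With the cytokines 13 genes of the wider list rose and 5 fell relative to WT medium, 18 of 44 where 35.2% of all genes were called. Fbxl5 rose by 1.75 ± 0.13 (adjusted p = 1.3e-09), Slc39a8, a zinc and iron importer, by 2.87 ± 0.36 (adjusted p = 1.6e-06) and Lrp1, the receptor for haem bound to haemopexin, by 0.99 ± 0.12 (adjusted p = 1.1e-06). Cd163, the haptoglobin receptor (-2.84 ± 0.69, adjusted p = 0.0031), Pcbp2 (-0.48 ± 0.13, adjusted p = 0.0055) and Slc48a1 (-0.48 ± 0.13, adjusted p = 0.0058) fell. Cd163 rests on very few counts, with 0.582, 0.0846 and 0.164 CPM with the cytokines, against 1.02, 1.29 and 3.62 CPM in WT medium. Slc39a8 was rare as well, with 4.17, 2.71 and 4.52 CPM with the cytokines, against 0.764, 0.429 and 0.336 CPM in WT medium. Added to LPS, the cytokines raised 14 and lowered 4, 18 of 44 where 40.3% of all genes were called, so the share called was near that of all genes. Hp, haptoglobin, rose by 1.07 ± 0.10 (adjusted p = 3.8e-08), Lrp1 by 1.08 ± 0.12 (adjusted p = 3.1e-07) and Fbxl5 by 1.12 ± 0.13 (adjusted p = 6.8e-07). Cp fell by 3.87 (SE 0.28, adjusted p = 1.2e-09), with 1.88, 1.54 and 1.91 CPM with LPS and the cytokines, against 23.9, 23.6 and 31.2 CPM with LPS alone. Alas1 (-0.57 ± 0.12, adjusted p = 0.00065) and Iscu, a scaffold for iron-sulphur clusters (-0.52 ± 0.11, adjusted p = 0.00079), also fell.

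LPS added to the cytokines raised 13 and lowered 11, where 23.9% of all genes rose, 23.1% fell and 46.9% were called. Hp rose by 1.29 ± 0.10 (adjusted p = 5.2e-09), Slc48a1 by 1.63 ± 0.13 (adjusted p = 6.5e-09) and Ncoa4 by 0.85 ± 0.10 (adjusted p = 1.4e-06). Blvra (-0.73 ± 0.12, adjusted p = 6e-05) and Pcbp2 (-0.49 ± 0.13, adjusted p = 0.0037) fell. Slc48a1 had 585, 520 and 548 CPM with LPS and the cytokines, against 185, 200 and 150 CPM with the cytokines alone.

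**Figure D5:**
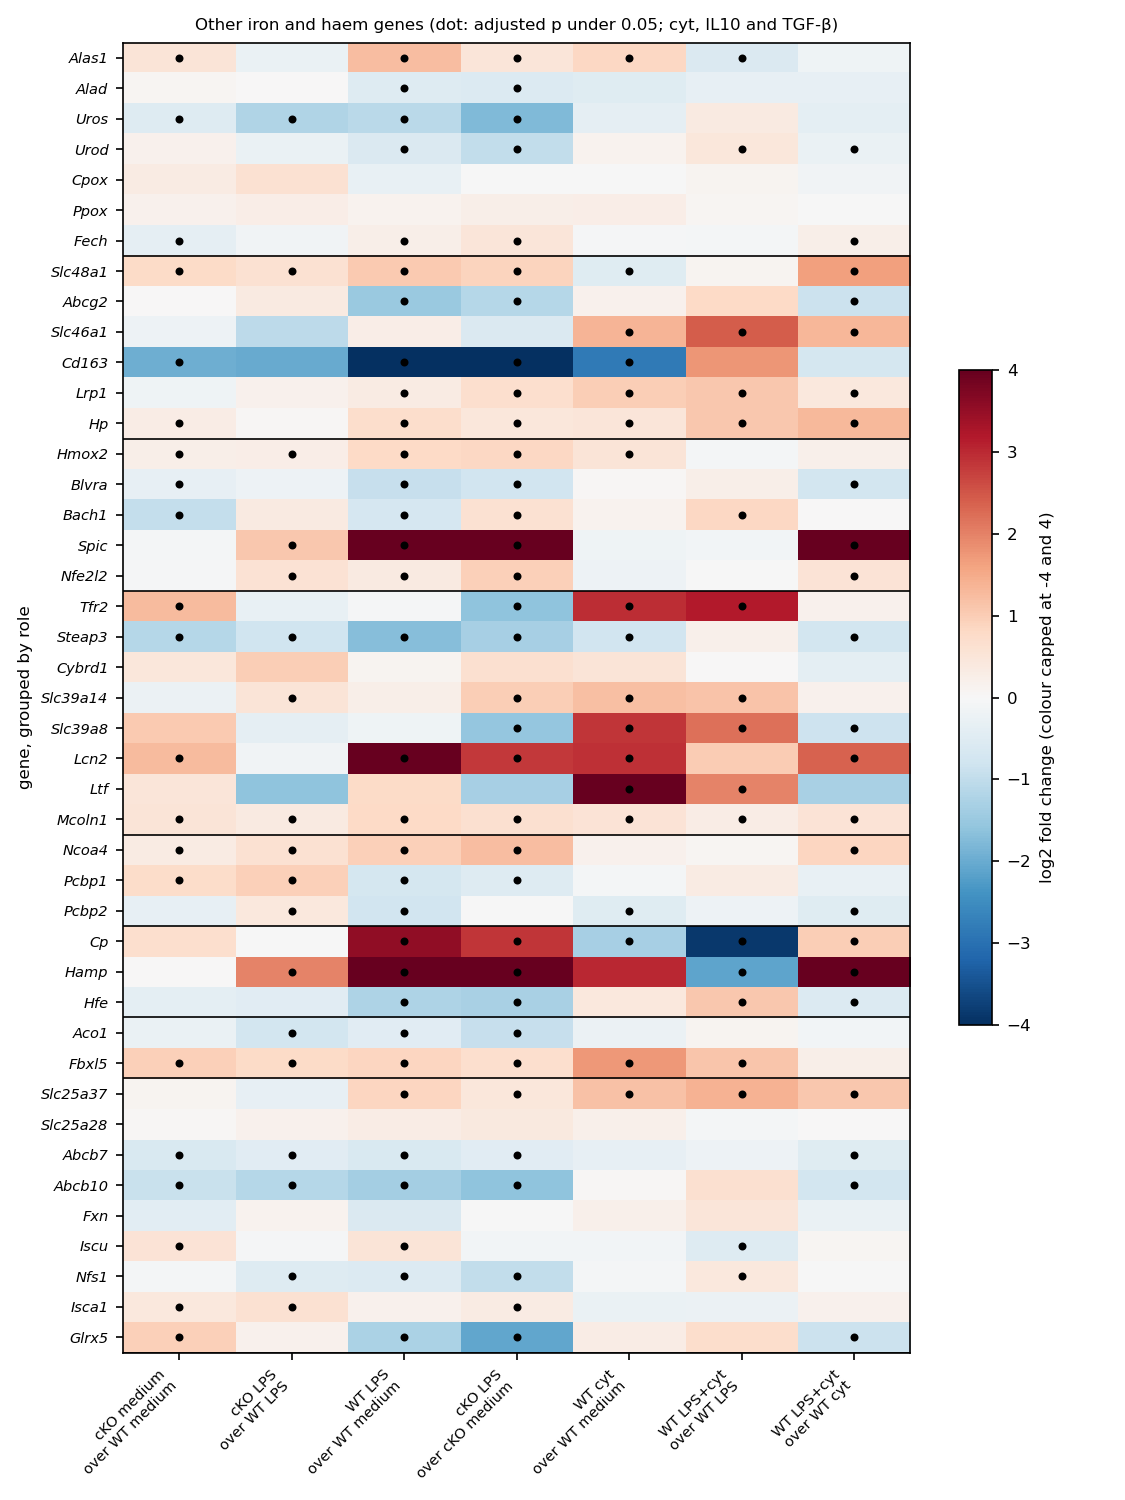
Log2 fold changes (colour, capped at -4 and 4) of 43 tested genes of the wider list (down the page, grouped by role) in the 7 comparisons between groups, with a dot where the adjusted p was under 0.05; cyt stands for IL10 with TGF-β. Cp is 3.55 with LPS in WT cells and -3.87 when the cytokines were added to LPS.

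Across the 18 libraries, each of the 10 genes was set beside 7753 well-expressed genes by Pearson's r of log2 CPM. This describes likeness over 6 groups whose libraries share treatments, and carries no test. The closest to Fth1 were Slc3a2 (r = 0.993), Gde1 (0.991) and Mlkl (0.991), and Slc3a2 was also near Hmox1 (0.986), after Slc31a2 (0.989) and Aff1 (0.988). Slc11a2 ran with Ctsz (0.994), Tma16 (0.990) and Akr1a1 (0.980), and Trf with Rnase4 (0.985), Gal (0.972) and Spp1 (0.967). Blvrb was closest to Ninj1 (0.989), Psrc1 (0.980) and Sowahc (0.980). Ftl1 was closest to Ubb (0.976), Ccdc117 (0.962) and Fcgr3 (0.960), and Slc11a1 to Cdk5rap2 (0.974), Ccng1 (0.970) and Polk (0.957). For the low-count genes the best values were lower. Tfrc reached 0.928 with Senp5, 0.925 with Slc38a2 and 0.924 with Arhgap30, Ireb2 reached 0.920 with P2ry6, 0.898 with Pmm2 and 0.884 with Gabpb2, and Slc40a1 reached 0.864 with Cpne1, 0.852 with Rasa2 and 0.841 with Mfsd8.

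Among the 10 genes themselves, Fth1 and Hmox1 were the most alike pair (r = 0.979), followed by Slc11a2 with Blvrb (0.899) and with Hmox1 (0.888). Tfrc ran against Blvrb (-0.753) and Ftl1 (-0.616). Trf was nearly unrelated to Ftl1 (0.03) and Fth1 (-0.045).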

How the data were processed

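The authors deposited gene-level expected counts and TPM from RSEM on mm10, per the file headers and the submitters' processing notes, which name bcl2fastq and RSEM with no versions. TPM was deposited by the authors scaled over all genes of a library. The design text of the labels names other aligners, whose output was not used here. Whether counting used strand is not given in the sources used here. Groups and replicate numbers came from the titles.

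Expected counts were rounded, 11876 genes passed filterByExpr, and TMM factors set the library scale. A single model of the 6 groups was fitted in edgeR 4.0.16 (R 4.3.3) with the robust quasi-likelihood F-test, with Benjamini-Hochberg adjustment of p over all tested genes in each of 7 comparisons and 2 interactions. The common biological coefficient of variation was 0.133. Replicates differed by more than sampling noise (chi-square per degree of freedom 3.64 to 36.3). TPM was used for levels between genes, ratios and limma 3.58.1.

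Members and lists were chosen with earlier results of these data known. Named were all 10 genes, the 3 called genes of smallest p per direction of the wider list, and the 3 most alike genes of each member; 1 gene of the wider list is not reported here. Alternatives were DESeq2 1.42.0, scaling by RLE or by the upper quartile, other count filters, only the groups compared, a replicate block, log2(TPM + 1), log2(TPM + 0.1), removal of Rn45s, and left-out libraries. Same-numbered libraries of WT medium and WT cytokines deviated together (correlations 0.338, 0.191 and 0.416), 1 of 15 pairs of groups with every value over 0.1, and the labels give no such pairing.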

Additional observations from a re-analysis of the deposited data

Results flagged for a closer look

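The LPS effect differed between genotypes by a test of the difference itself for Hmox1 (0.81 on the log2 scale, cKO minus WT) and Slc40a1 (-1.95), and in the wider list for Bach1 (1.30), Pcbp2 (0.76), Nfe2l2 (0.60), Alas1 (-0.76), Iscu (-0.61) and Aco1 (-0.48). For Slc40a1, which rests on few counts, the call was lost without the first library of both cKO groups (-1.05, adjusted p = 0.24). It was also lost with the replicate block and with several single libraries left out. Bach1, the repressor of Hmox1, rose with LPS in cKO cells (0.62 ± 0.20, adjusted p = 0.0095) and fell with LPS in WT cells (-0.67 ± 0.19, adjusted p = 0.0042).

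The LPS effect differed with and without the cytokines for Trf (0.67), Slc11a2 (-1.10), Fth1 (-0.97) and Hmox1 (-0.93), and in the wider list for Slc48a1 (0.59), Hp (0.58), Nfs1 (0.51), Cp (-2.55), Alas1 (-1.41) and Hmox2 (-0.59). Groups of 3 libraries were too small to be tested for single outlying values.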

How the results depend on the processing

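Of 90 results for the 10 genes, 48 were called, and 64 kept their side of the threshold under every setting run. Over 1600 pairs of a result and a setting, 75 changed a call, and these fell on 26 of the 90 results. The sign turned under some setting for 20 results, of which 19 were called on neither side, such as Slc11a2 in cKO LPS over WT LPS (0.23, and -0.26 on log2(TPM + 1)). The other was Ireb2 in cKO LPS over cKO medium, at 0.14 without a call and, with a call, -0.32 on log2(TPM + 1) and -0.38 on log2(TPM + 0.1); the cause was not tested. Without the count filter 8 of the 10 genes were called for the cytokines over WT medium, against 5. Over all genes, 2161 were higher and 2037 lower of 20280 without the filter, against 2170 and 2005 of 11876 with it. The difference of LPS effects between genotypes was called for 1 gene, against 2, with the replicate block, with only the groups compared and without the first library of both cKO groups, and for 1 to 3 genes with single libraries left out. Slc40a1 was the gene lost in these fits. The replicate block changed no other call of the 10 genes.

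Removing the count filter and the log2(TPM + 1) scale changed 11 calls each. On log2(TPM + 1) the median of all genes was -0.31 for cKO LPS over WT LPS, -0.47 for cKO LPS over cKO medium, -0.19 for WT LPS over WT medium, -0.12 for the cytokines, -0.11 for LPS added to them, -0.25 for the genotype difference and 0.10 for the cytokine difference. With upper-quartile scaling cKO LPS over cKO medium moved to -0.25. The share of calls that were higher was 11.8% on log2(TPM + 1), against 45.3%, for cKO LPS over WT LPS, 21.6% against 45.7% for cKO LPS over cKO medium, 32.9% against 50.8% for WT LPS, 39.4% against 52.4% for cKO medium, 34.1% against 52.0% for the cytokines, 35.8% against 50.9% for LPS added to them, 12.7% against 42.0% for the genotype difference and 56.1% against 42.4% for the cytokine difference. RLE scaling gave 55.2% for the genotype difference.

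Called genes of the wider list numbered 12 with only the groups compared and 13 without the first library of both cKO groups or of cKO medium alone, against 21, in cKO medium. They numbered 11 without the first WT LPS library, against 19, in cKO LPS, from 4 to 15 over all settings, against 7, for the genotype difference, and from 5 (without the third WT LPS library or the third WT cytokines library) to 16, against 9, for the cytokine difference. Over all genes tested, 2306 were called with only the groups compared, against 3583, in cKO medium, and 1268 without the first cKO libraries, 3309 on log2(TPM + 1) and 3403 on log2(TPM + 0.1), against 2070, for the genotype difference. Slc40a1 (SE 0.38 to 0.46) and Tfrc (SE 0.26 to 0.31) had the widest errors of the 10 genes in the comparisons between groups.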

Other observations

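Slc25a37, the iron importer of the inner mitochondrial membrane, was 1.17 ± 0.17 higher with the cytokines than in WT medium (adjusted p = 1.6e-05) and 1.40 ± 0.16 higher with LPS and the cytokines than with LPS alone (adjusted p = 1.2e-06). It also rose with LPS in WT cells (0.87 ± 0.17, adjusted p = 0.00021). The genes of these paragraphs were picked after their values were seen.

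Spic, a transcription factor of iron-recycling macrophages, was rare and rose with LPS. It had 7.36, 9.36 and 11.7 CPM in cKO LPS, against 2.57, 7.12 and 3.75 CPM in WT LPS, a difference of 1.08 ± 0.39 (adjusted p = 0.037). In medium it was at most 0.373 CPM in cKO cells and 0.429 CPM in WT cells.

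Lcn2 and Ltf, which bind bacterial siderophores and iron, are also granulocyte genes. Lcn2 had 3120, 2703 and 2675 CPM with LPS and the cytokines, against 1184, 1171 and 1821 CPM with LPS alone, without overlap and without passing (1.03 ± 0.41, adjusted p = 0.065). Ltf did pass there (1.98 ± 0.55, adjusted p = 0.012). Relative to WT medium, the cytokines alone raised Lcn2 by 2.91 ± 0.44 (adjusted p = 0.0002) and Ltf by 4.05 ± 0.60 (adjusted p = 0.00016). The part of granulocyte precursor markers in these values was not tested.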
